A study of Mus musculus with 16 samples.

Results

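Gonadal and subcutaneous fat were compared in mice that had received the control vector, in 8 of the 16 RNA sequencing samples of the series, 4 from each depot. All 8 came from female mice that lack Lcn2 (B6.129P2-Lcn2tm1Aade/AkiJ, on C57BL/6J). They were injected intravenously, when 8 weeks old, with an AAV8 vector that carries GFP under an adiponectin promoter and a microRNA122 target sequence, which lowers expression in liver. They were then kept on the diet labelled HF/HS until 16 weeks of age. The other 8 samples, 4 per depot, came from such mice given the LCN2 vector. They are used here as samples that the comparison did not use, and for some called genes are set beside the GFP samples. Every depot difference described below is therefore one between fat pads of Lcn2-null, virus-injected, diet-fed females, and no untreated or wild-type mouse was among the samples. Whether equal replicate numbers in the 2 depots stand for 1 animal is not given, nor whether the samples of a group came from separate animals.

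Fat depots differ in the cells that surround and pervade their adipocytes. Gonadal fat lies in the abdominal cavity and is covered by mesothelium, a single layer of flat cells that arises from lateral mesoderm and is marked by the transcription factor Wt1, the plaque protein Upk3b and the surface protein Msln. Inguinal subcutaneous fat of female mice holds the mammary gland, whose ducts consist of keratin-rich luminal cells and contractile basal cells, and often a lymph node. Adipocyte precursors of each depot also keep patterning genes from development, such as Tbx15 and Shox2 under the skin and Wt1 in visceral fat. The labels say gonadal and subcutaneous fat without naming the pad that was taken.

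The depots were deposited in separate tables with different units, so their values cannot be subtracted. Each gene was instead given its percentile rank within its own sample, from 0 for the lowest to 100 for the highest, over the 29084 gene IDs in both tables. In gonadal samples a rank of 40 corresponded to a normalized count of 20.6, a rank of 60 to 229, a rank of 80 to 1084 and a rank of 95 to 4106. A gene with at most 3 gonadal reads ranked no higher than 19.8 to 24.5, depending on the sample. A gene was called when its 4 gonadal and 4 subcutaneous ranks did not overlap and the depot means differed by at least 10 points, among the 17367 genes with a mean rank of at least 40 over the 8 samples. A step of 10 points equals a log2 change of 1.70 from rank 50 and of 1.09 from rank 80 on the gonadal scale. No p-value is given, because depot and table cannot be told apart: sequencing, counting and transformation may differ with the depot. Ranks also ignore gene length, so they are compared for 1 gene between samples and not between genes. Gonadal GFP samples held 36380258 to 39167086 reads, while the depth of the subcutaneous samples is unknown.

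Libraries that stood apart from their group bear on some results. The lymph node list, 22 B cell, T cell and lymphoid stroma genes, had a median rank of 79.4 and 72.3 in subcutaneous GFP replicates 1 and 2, against 47.3 and 47.1 in replicates 3 and 4 and 41.0 to 46.9 in the gonadal samples. Hepatocyte genes were highest in gonadal replicate 1, with a median rank of 77.7, and skeletal muscle genes in gonadal replicate 2, with 53.9. Gonadal replicate 4 had the highest ranks of mesothelial genes, with a list median of 77.7 against 68.0 to 72.2 in the others. Counts below are given without subcutaneous replicates 1 and 2 where that changes them by over 1.5 times.

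The 3 marker genes of mesothelium separated the depots in every sample. Wt1 (chr2:105126529-105173616, plus strand), the zinc finger factor of mesothelium and kidney podocytes, ranked 77.6, 76.5, 74.3 and 84.4 in the gonadal samples and 4.11, 4.05, 4.04 and 4.03 in the subcutaneous ones. Its gonadal normalized count was 980 ± 299 (SD, n = 4), and its subcutaneous rlog value of -1.07 ± 0.02 (SD, n = 4) lay at the bottom of that table. The groups were far apart, although gonadal replicate 4 stood above the other gonadal samples. Upk3b (chr5:136038496-136046487, plus strand), a uroplakin of mesothelial and urothelial membranes, ranked 93.9, 94.0, 91.4 and 97.0 against 22.2, 23.1, 21.8 and 21.7. Msln (chr17:25748613-25754378, minus strand), mesothelin, ranked 75.3, 74.8, 71.1 and 88.0 against 31.5, 32.0, 31.8 and 34.4. In bulk tissue, fewer cells of a type and less RNA per cell cannot be told apart.

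Over all genes, 192 were higher in gonadal fat, 1.11% of those tested, and 408 were higher in subcutaneous fat, 2.35%. The median difference over the genes tested was 0.290 points and the median absolute difference 1.53 points, against a median SD of 1.56 points among gonadal and 0.954 points among subcutaneous samples. The 2 groups did not overlap for 22.4% of the genes tested, so the call rests mainly on the size of the difference. In 50 of the 192 and 163 of the 408 the lower depot had a mean rank under 40, so these genes entered the test only through the depot where they were high. Just inside the limit lay Kng2, with a difference of 10.01, and Tes, with -10.03, and just outside it Limd2, with -9.99, and Eya2, with -9.98. Ranks are compressed among abundant genes, so both tables were also mapped onto the gonadal log2 distribution. With a difference of at least 1 on that common log2 scale, 398 genes (2.29%) were higher in gonadal and 613 (3.53%) in subcutaneous fat.

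**Figure D1:**
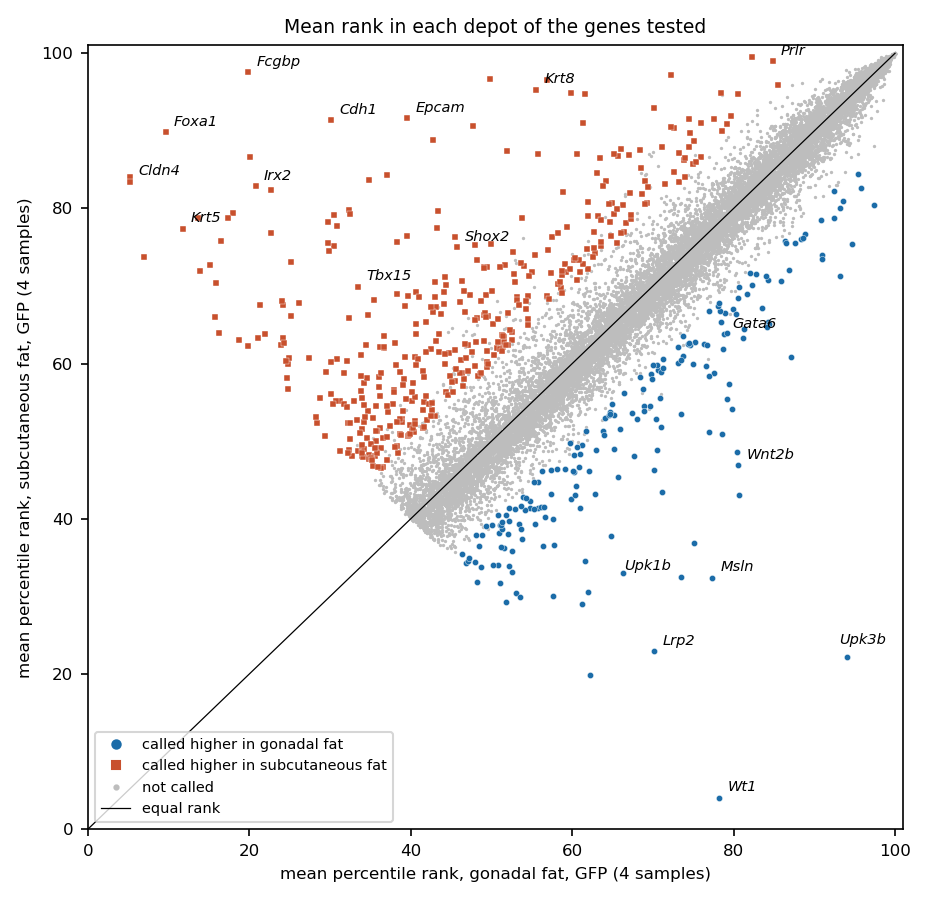
Mean percentile rank of each of the 17367 genes tested in the 4 gonadal (x axis) and 4 subcutaneous (y axis) GFP samples, with the 192 genes called higher in gonadal fat as circles and the 408 called higher in subcutaneous fat as squares. Foxa1 and Cldn4 lie at the top left, at gonadal ranks of 9.64 and 5.16, and Wt1 at the bottom right, at 78.2 against 4.06, while most genes lie along the line of equal rank.

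Among the 20 mesothelial genes in both tables, 11 were higher in gonadal fat and 4 were higher in subcutaneous fat, with 19 tested. Over all genes tested these shares were 1.11% and 2.35%. The median difference over the 20 was 20.1 points, beside 0.423 over all genes in both tables. Of the 15 called members, 7 had the other depot under a rank of 40. After the 3 markers, the larger gonadal differences were those of Upk1b, another uroplakin, of Tmem151a, a membrane protein gene, of Nkain4, a sodium pump interacting protein, and of Gpm6a, a membrane glycoprotein. Upk1b ranked 73.5 ± 4.44 against 32.5 ± 0.897, and Gpm6a 80.4 ± 4.91 against 48.6 ± 0.719 (SD, n = 4 per depot). Lrrn4 ranked 76.6, 77.0, 76.9 and 83.6 against 49.4, 51.2, 50.4 and 53.0, and Bnc1, the basonuclin factor gene, 65.4, 63.2, 62.3 and 68.3 against 37.2, 37.0, 36.6 and 40.3. For both genes the lowest gonadal sample was over 20 points above the highest subcutaneous one. Rspo1, a secreted activator of Wnt signalling, ranked 76.9 ± 4.60 against 51.2 ± 5.38, with subcutaneous replicates 3 and 4 at 56.3 and 55.4 and the other two at 46.3 and 46.9. Aldh1a2, which makes retinoic acid, had the smallest of the 11 differences, 65.9 ± 3.10 against 51.5 ± 1.32.

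The 4 mesothelial list members that were higher in subcutaneous fat are keratins that mammary luminal cells also carry, and that the luminal list holds too. Krt19 ranked 73.2, 70.3, 67.3 and 78.1 in gonadal and 95.4, 97.9, 97.9 and 97.4 in subcutaneous fat. Its gonadal level was not low, with a normalized count of 641 ± 214 (SD, n = 4). Krt8, Krt18 and Krt7 differed in the same direction, by -39.8, -39.7 and -21.8 points. The 4 members that were tested and not called are Muc16, Cldn15, Cdh3 and Pdpn. Of these, Pdpn, podoplanin, did not overlap between depots but differed by only 9.08 points, and Muc16 ranked 80.2 ± 4.71 against 71.4 ± 9.42 with overlap. Calb2, calretinin, was under the rank filter in both depots.

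**Figure D2:**
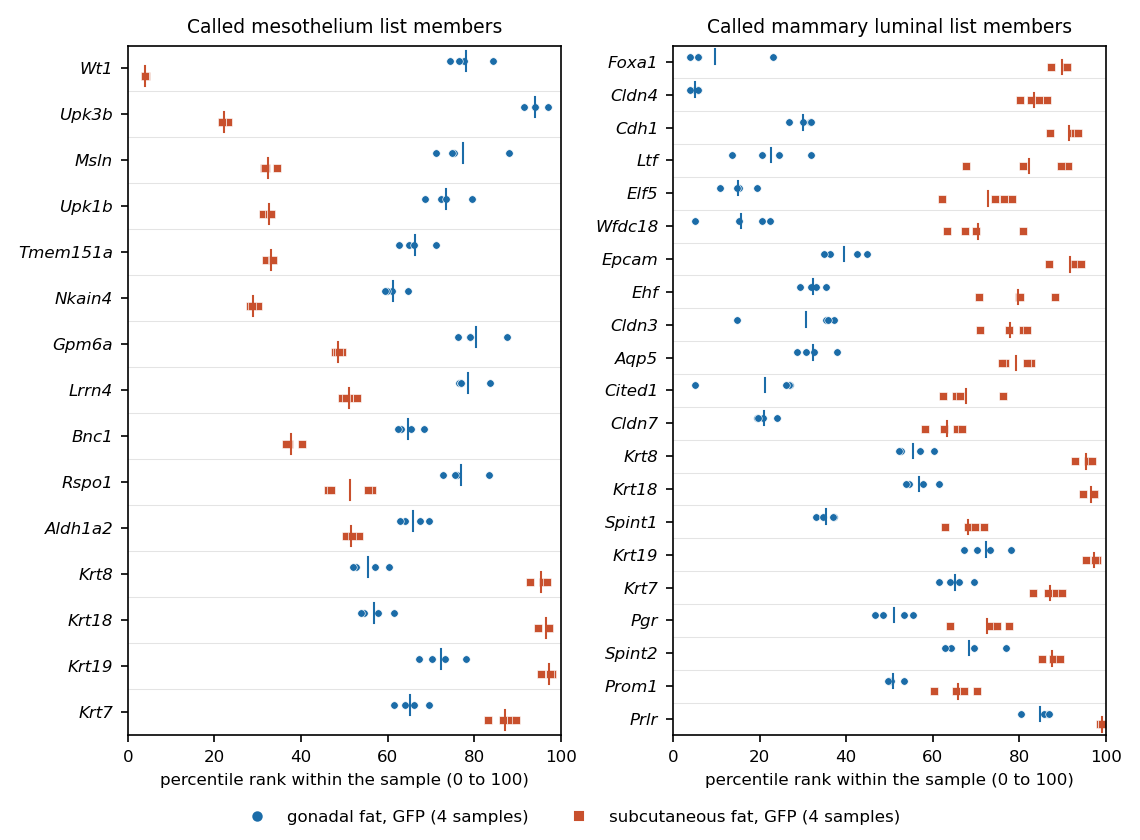
Percentile rank in each of the 4 gonadal (circles) and 4 subcutaneous (squares) GFP samples of the 15 called mesothelial list members (left) and the 21 called mammary luminal list members (right), with a short line at each mean. The 11 upper genes at the left are higher in all gonadal samples, and the 4 keratins below them and the 21 genes at the right are higher in all subcutaneous samples.

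Transcription factors that pattern the splanchnic and intermediate mesoderm were ranked higher in gonadal fat. Of the 16 visceral developmental factors in both tables, 9 were tested, 4 were called higher in gonadal and 0 in subcutaneous fat. Over all genes tested these shares were 1.11% and 2.35%. In 2 of the 4 the subcutaneous mean rank was under 40. All 16 had a positive difference, with a median of 12.8 points, beside a median of 0.423 over all genes in both tables. In 14 of them every gonadal sample ranked above every subcutaneous one, beside 11.9% of all genes tested. That share leaves out genes under the rank filter, while the 16 include such genes. Besides Wt1, the called genes were Gata6, Foxf1 and Osr1. Gata6, a zinc finger factor of visceral mesoderm and endoderm, ranked 79.0, 77.7, 76.1 and 82.2 against 63.6, 62.0, 61.7 and 67.9. Foxf1, a forkhead factor of splanchnic mesoderm, ranked 53.1, 47.8, 49.3 and 53.4 against 40.8, 38.6, 37.1 and 36.2. Osr1, a zinc finger factor of intermediate mesoderm, ranked 74.8, 81.1, 73.3 and 83.5 against 62.1, 67.4, 69.1 and 72.8, so that its groups missed each other by less than 1 point. The Osr1 call ended without gonadal replicates 2 or 4 or subcutaneous replicate 1, and the difference was -1.78 points in the LCN2 samples. Emx2, a homeobox factor of the urogenital ridge, was just under the limit with 61.7 ± 3.05 against 51.8 ± 2.01.

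The 7 visceral factors under the rank filter are named here after their values were seen. Tcf21, a helix-loop-helix factor of visceral fat stroma, ranked 61.3, 59.5, 58.0 and 64.4 in gonadal fat, from 170 to 426 reads, against 10.3 to 10.6 in subcutaneous fat. Isl1, a LIM homeobox factor, ranked 49.1, 50.4, 46.5 and 53.1, from 40 to 135 reads, against 1.00 to 1.95. Neither gene's depots came near each other. Hand2, Gata4, Nkx3-2 and Foxf2 did not overlap either, with gonadal mean ranks of 42.6, 38.2, 36.2 and 34.7 against 22.6, 22.1, 8.95 and 22.0. Lhx9 overlapped.

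Patterning genes of limb, trunk and skin mesenchyme stood higher in subcutaneous fat in part of their list. Of 31 such factors in both tables, 8 were called higher in subcutaneous and 0 in gonadal fat, with 21 tested. Over all genes tested these shares were 2.35% and 1.11%. In gonadal fat 5 of the 8 were under rank 40. The median difference was -5.99 points, beside 0.423 over all genes in both tables. Irx2, Irx1 and Irx5 belong to the Iroquois homeobox family and differed by -62.1, -48.8 and -25.5 points. Irx2 ranked 19.4, 15.2, 28.7 and 19.8 in gonadal fat, on 1 to 5 reads, and 75.7, 83.5, 84.3 and 87.9 in subcutaneous fat. The Iroquois member Irx3 did not overlap between depots but stayed under the limit with 62.3 ± 1.70 against 71.9 ± 5.20. Iroquois genes are also active in epithelia, and the part of mammary epithelium in these values was not tested.

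Tbx15 (chr3:99240381-99354259, plus strand), a T-box factor known for marking subcutaneous adipocyte precursors, ranked 34.6, 33.3, 28.7 and 37.2 in gonadal and 68.0, 70.3, 72.3 and 69.2 in subcutaneous fat. The depots were over 30 points apart in every sample. Shox2, a homeobox factor of proximal limb, ranked 44.3, 46.3, 44.7 and 47.4 against 73.9, 72.7, 78.8 and 74.6. Lmx1b, a LIM homeobox factor of dorsal limb, ranked 13.9 ± 7.99, on 0 to 3 reads, against 71.9 ± 3.64. Alx4, a paired-type homeobox factor, and En1, the engrailed factor of somite and skin, were nearer to the limit, at -12.4 and -10.2 points. The En1 call ended without gonadal replicates 2 or 4 or subcutaneous replicate 3. The hindlimb factors Tbx4 and Pitx1 did not share that direction. Both were under the rank filter, with gonadal ranks of 36.0 ± 3.61 and 45.8 ± 3.41 against 20.8 ± 0.373 and 33.8 ± 0.991. Msx2 and Barx2, also under the filter, ranked 10.5 ± 6.44 and 17.5 ± 5.84 against 57.1 ± 2.15 and 55.1 ± 4.12. These 4 genes were picked out after their values were seen.

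Hox genes, which record position along the body axis, differed less than the other factors. Of 31 in both tables, 27 were tested, 4 were called higher in gonadal and 0 in subcutaneous fat. Over all genes tested these shares were 1.11% and 2.35%. A positive difference was seen in 27 of the 31, with a median of 3.81 points, beside 0.423 over all genes in both tables. In 18 of the 31 every gonadal sample ranked above every subcutaneous one, beside 11.9% of all genes tested. The 31 include genes under the rank filter, which that share leaves out. The called genes are Hoxa5 and 3 neighbours of the HoxD cluster on chromosome 2. Hoxd8 ranked 82.6, 81.5, 81.5 and 85.2 against 68.1, 69.6, 74.3 and 74.3. Hoxd9 ranked 71.7, 67.2, 68.8 and 71.8 against 56.6, 56.0, 57.9 and 61.3, and Hoxd10 ranked 53.5, 47.4, 49.7 and 57.9 against 39.2, 39.0, 39.5 and 41.0. All 3 kept the depots apart, with subcutaneous replicate 4 at or near the top of its group. Hoxa5 ranked 70.5, 70.1, 68.4 and 71.3 against 59.9, 58.3, 60.1 and 61.1, and its call ended without gonadal replicate 4 or subcutaneous replicate 2. No HoxB gene was called, and Hoxb2 was slightly lower in gonadal fat by its mean, with 47.4 ± 0.750 against 50.3 ± 1.05. Hoxc8, among the highest ranked of the list, overlapped at 88.7 ± 2.77 against 90.6 ± 1.49. Hoxa11 and Hoxc11, both posterior genes under the filter and named after their values were seen, ranked 53.6 ± 1.13 against 7.34 ± 0.0827 and 47.5 ± 1.17 against 30.0 ± 0.828.

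**Figure D3:**
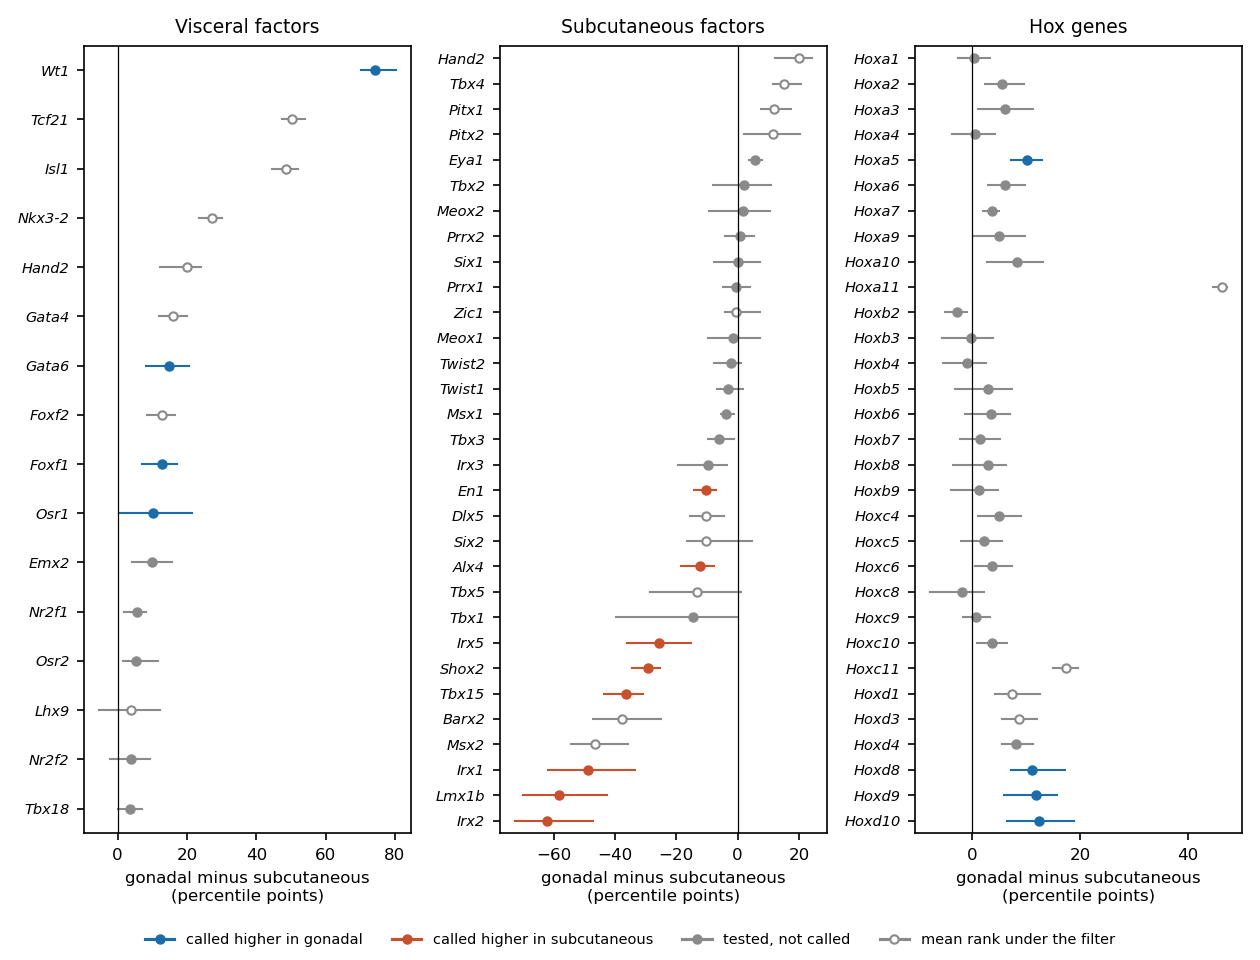
Difference in mean percentile rank, gonadal minus subcutaneous GFP samples (x axis, points), for the 16 visceral factors, 31 subcutaneous factors and 31 Hox genes in both tables. Each line runs from the smallest to the largest difference between a gonadal and a subcutaneous sample, and open circles are genes whose mean rank is under 40; Hox genes stand in cluster order, with Hoxd8, Hoxd9 and Hoxd10 called at the bottom.

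Mammary luminal genes were the list with the widest depot difference. Of 24 in both tables, 22 were tested and 21 were higher in subcutaneous fat, with 0 higher in gonadal fat and a median difference of -44.2 points. Over all genes tested, 2.35% were higher in subcutaneous and 1.11% in gonadal fat. In 13 of the 21 the gonadal mean rank was under 40. Foxa1 (chr12:57540628-57546916, minus strand), the forkhead factor that opens chromatin for hormone receptors in luminal cells, ranked 23.1, 5.79, 5.71 and 3.98 in gonadal fat, on 0 to 3 reads, and 87.2, 90.9, 90.5 and 90.9 in subcutaneous fat. Cldn4, a tight junction claudin, had 0 reads in every gonadal sample, a count that allows up to 3, and ranked 80.1, 84.6, 86.4 and 82.6 in subcutaneous fat. Cdh1 (chr8:106603351-106670246, plus strand), E-cadherin, ranked 31.8, 32.0, 26.7 and 30.0, on 4 to 9 reads, against 87.1, 92.4, 92.8 and 93.4. Epcam, an epithelial adhesion molecule, ranked 44.8, 36.2, 34.8 and 42.5 against 86.9, 92.7, 92.9 and 94.3. For Foxa1, Cdh1 and Epcam subcutaneous replicate 1 was the lowest of its group, as it was for the list, whose median ranks were 78.4, 81.7, 81.3 and 84.6.

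Genes of hormone response and secretion in the gland followed the same direction. Prlr, the prolactin receptor, ranked 86.4, 85.8, 86.8 and 80.5 in gonadal and 98.7, 99.3, 99.1 and 99.1 in subcutaneous fat, a difference of -3.12 on the common log2 scale. Pgr, the progesterone receptor, ranked 51.1 ± 4.13 against 72.5 ± 5.97. Ltf, lactotransferrin, varied most among the subcutaneous samples, with 91.2, 80.8, 67.6 and 89.7, and stayed at 13.8 to 32.0 in gonadal fat. Elf5, the factor of alveolar differentiation, ranked 15.1 ± 3.45 against 72.8 ± 7.28. The other 9 called members, Ehf, Prom1, Spint1, Spint2, Aqp5, Wfdc18, Cited1, Cldn3 and Cldn7, differed by -14.9 to -54.6 points. Trps1 was the tested member that was not called, at -9.21 points without overlap. Elf3, under the filter, had 0 reads in all gonadal samples and ranked 61.8 ± 2.25 in subcutaneous fat.

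Basal epithelial genes were higher in subcutaneous fat too. Of 19 in both tables, 15 were tested, 11 were higher in subcutaneous and 0 in gonadal fat, and the median difference was -16.6 points. Over all genes tested, 2.35% were higher in subcutaneous and 1.11% in gonadal fat. In 5 of the 11 the gonadal mean rank was under 40. Krt5, the basal keratin, ranked 19.4, 5.79, 5.71 and 16.1 in gonadal fat, on 0 to 2 reads, against 66.7, 74.8, 80.4 and 87.7. Its partner Krt14 ranked 29.7 ± 6.69 against 75.6 ± 6.80. Sox10, a factor of basal cells and of Schwann cells, ranked 39.5 ± 3.21 against 76.5 ± 6.98. Trp63, the p53 relative that keeps basal cells, was nearer, at 54.5 ± 2.89 against 65.8 ± 4.33, and its call ended without subcutaneous replicate 4. The other 7 called members, Lgr6, Cxcl14, Dsp, Perp, Sfn, Itgb4 and Nrtn, differed by -11.6 to -47.2 points, and the Itgb4 call ended without gonadal replicate 2. Oxtr, the oxytocin receptor, overlapped, with gonadal ranks of 96.1, 77.1, 76.9 and 93.0. The epidermis list held 10 measured genes, of which 2 passed the filter, and Sbsn, suprabasin, was called higher in gonadal fat at 90.9 ± 4.61 against 73.5 ± 2.51. Krt1 and Krt10, keratins of skin, ranked 22.8 ± 0.278 and 48.2 ± 0.531 in subcutaneous fat.

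Genes of epithelial junctions and epithelial splicing were also higher in subcutaneous fat. Of 38 in both tables, 34 were tested, 19 were higher in subcutaneous and 0 in gonadal fat, with a median difference of -20.6 points. Over all genes tested, 2.35% were higher in subcutaneous and 1.11% in gonadal fat. In 14 of the 19 the gonadal mean rank was under 40, so these entered the test only through subcutaneous fat. Called members included the claudins Cldn3, Cldn4 and Cldn7, the tight junction proteins Ocln, Tjp3, Cgn, Marveld2 and Marveld3, the desmosomal genes Dsp, Dsg2, Dsc2, Pkp1 and Pkp3, and the surface proteases Prss8 and St14. Esrp1 and Esrp2, which set epithelial splicing, ranked 25.1 ± 12.0 and 36.7 ± 4.63 against 73.1 ± 4.59 and 63.6 ± 3.03. Grhl2, the grainyhead factor of epithelia, was under the filter with 15.0 ± 6.54 against 62.0 ± 3.35. Jup, Cgnl1, F11r and Cldn15, which other cell types of fat also express, were not called. Crb3, a polarity protein gene, was near the limit at -10.2 points, and its call ended without gonadal replicates 3 or 4 or subcutaneous replicates 3 or 4.

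Because Foxa1, the claudins, the keratins and Epcam were higher in the same samples, the 250 bases before the RefSeq start (GRCm38.p6, 5′ to 3′ on the gene's strand) are shown for 4 of them and, for contrast, for Upk3b. Capitals mark the letters CAGGTG on either strand (CACCTG on the strand shown), an E-box that the repressors Snai1 and Zeb1 are known to bind in epithelial promoters. The windows are Foxa1 at chr12:57546112-57546361 (minus), Cldn4 at chr5:134946935-134947184 (minus), Epcam at chr17:87635729-87635978 (plus), Krt8 at chr15:102004343-102004592 (minus) and Upk3b at chr5:136038246-136038495 (plus). The Foxa1 window lies inside the GENCODE span of the gene given above, because GENCODE starts Foxa1 further upstream than the RefSeq start used here.
Foxa1: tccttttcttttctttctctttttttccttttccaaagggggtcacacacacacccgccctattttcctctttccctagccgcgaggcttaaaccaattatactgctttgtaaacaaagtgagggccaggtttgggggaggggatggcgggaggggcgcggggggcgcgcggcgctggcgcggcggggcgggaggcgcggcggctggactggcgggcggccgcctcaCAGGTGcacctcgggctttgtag
Cldn4: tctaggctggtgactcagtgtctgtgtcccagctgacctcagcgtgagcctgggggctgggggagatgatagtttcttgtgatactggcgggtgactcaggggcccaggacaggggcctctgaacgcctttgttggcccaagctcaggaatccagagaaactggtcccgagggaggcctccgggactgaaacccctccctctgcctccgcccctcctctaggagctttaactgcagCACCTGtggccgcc
Epcam: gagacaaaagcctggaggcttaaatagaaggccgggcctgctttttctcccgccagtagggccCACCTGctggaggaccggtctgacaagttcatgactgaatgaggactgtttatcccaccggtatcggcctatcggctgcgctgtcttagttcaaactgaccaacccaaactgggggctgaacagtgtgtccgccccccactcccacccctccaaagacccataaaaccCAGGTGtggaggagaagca
Krt8: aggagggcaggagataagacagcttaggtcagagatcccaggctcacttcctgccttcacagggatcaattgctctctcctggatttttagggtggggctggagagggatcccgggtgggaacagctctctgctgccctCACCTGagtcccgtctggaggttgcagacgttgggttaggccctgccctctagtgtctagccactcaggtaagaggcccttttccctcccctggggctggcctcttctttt
Upk3b: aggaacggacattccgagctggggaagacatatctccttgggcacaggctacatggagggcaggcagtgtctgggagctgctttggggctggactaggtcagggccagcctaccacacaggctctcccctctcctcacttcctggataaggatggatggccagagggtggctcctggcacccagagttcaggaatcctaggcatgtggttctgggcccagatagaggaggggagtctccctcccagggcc
The match began 23 bases before the RefSeq start in Foxa1, 14 in Cldn4, 187 and 19 in Epcam and 111 in Krt8, and the letters are not in the Upk3b window.

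With 1 window per gene, at its most upstream start, 11199 of the genes tested matched a RefSeq window, as did 126 of the 192 and 285 of the 408 called genes. CAGGTG was present in 17.1% of all 27025 windows and in 15.0% of those of genes tested. It was present in 88 of the 285 windows of genes higher in subcutaneous fat (30.9%) and in 19 of the 126 windows of genes higher in gonadal fat (15.1%). Of the 30 windows of named luminal, basal or junction genes, 16 held it (53.3%), as did 5 of 21 windows of other named genes higher in subcutaneous fat (23.8%) and 3 of 22 of named genes higher in gonadal fat (13.6%). The letters are not in the windows of Cldn3, Cldn7 and Krt14, so the 4 windows shown with a match were picked for it. The grainyhead letters AACCNGTT were in 2.46% of the subcutaneous and 0 of the gonadal windows, beside 1.61% among genes tested. The TFAP2 letters GCCNNNGGC were in 19.6% and 23.0% beside 20.2%, the forkhead letters TGTTTAC in 2.11% and 2.38% beside 2.21%, the letters GCGNGGGNG of EGR and WT1 factors in 20.4% and 15.1% beside 17.6%, and the GATA letters AGATAA in 6.32% and 8.73% beside 5.95%. Each search covered both strands, and a match describes the letters only.

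Some of the largest differences were those of genes that no list held. In subcutaneous fat, Tfap2b, an AP-2 factor of mammary ducts, had 0 reads in all gonadal samples and ranked 79.1, 81.3, 87.2 and 88.6. Fcgbp, a mucus-associated binding protein, ranked 19.4, 20.9, 5.71 and 33.4 against 93.9, 97.3, 99.4 and 99.7. Muc15, a membrane mucin, Tmprss2, a surface protease, Wfdc2, a secreted whey acidic protein relative, and Atp6v1b1, a proton pump subunit, differed by -66.9, -66.5, -65.1 and -61.4 points. In gonadal fat, Lrp2, the endocytic receptor megalin, ranked 69.5, 69.6, 64.7 and 76.8 against 23.5, 23.2, 22.4 and 22.8. Asic2, an ion channel subunit, Myrf, a membrane-bound transcription factor, and Pkhd1l1, a fibrocystin relative, differed by 42.4, 38.2 and 37.6 points. In these 4 genes, as in mesothelial ones, gonadal replicate 4 was the highest or next to the highest gonadal sample. The Asic2 call ended, by falling under the filter, without any 1 of the 4 gonadal libraries. It also ended with gonadal reads passed through rlog and in the LCN2 samples. The calls of Tfap2b and Muc15 ended, also by falling under the filter, without any 1 of the 4 subcutaneous libraries.

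Secreted signals were called in both directions, where 1.11% of all genes tested were called higher in gonadal and 2.35% in subcutaneous fat. Of 28 Wnt ligands, agonists and antagonists, Wnt2b, Rspo1, Rspo3 and Frzb were higher in gonadal fat and Wnt4 in subcutaneous fat, with 20 tested and a median of 2.86 points. Wnt2b, a ligand of mesothelium and eye, ranked 80.2, 81.6, 76.2 and 84.2 against 46.6, 46.4, 47.1 and 47.8. Wnt4, a ligand that acts downstream of progesterone in the breast, ranked 43.0 ± 3.98 against 68.6 ± 3.51. An antisense transcript, Gm48159, shares 13.1% of the exonic bases of Rspo3, and whether counting used strand is not known. Among BMP and TGF-beta genes, the antagonist Nog and the ligand Bmp4 were higher in gonadal fat, at 52.5 ± 4.05 against 33.1 ± 1.04 and 65.1 ± 2.77 against 53.4 ± 1.34. In retinoid metabolism, Aldh1a2 and Rbp7 of 16 genes were higher in gonadal fat. Among 20 axon guidance and glypican genes, Sema3a, Sema3e and Gpc3 were higher in gonadal fat and Epha7 and Ntn1 in subcutaneous fat. The calls of Sema3a, Gpc3 and Ntn1 each ended without at least 1 library, gonadal replicate 4 for Sema3a, subcutaneous replicate 1 for Gpc3, and gonadal replicates 2 or 3 or subcutaneous replicate 4 for Ntn1.

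Collagens were called in both directions, where the shares over all genes tested were 1.11% for gonadal and 2.35% for subcutaneous fat. Of 28, Col6a6, Col6a5 and Col8a2 were higher in gonadal fat and Col17a1, Col7a1 and Col11a1 in subcutaneous fat, with a median of -0.137 points and 22 tested and not called. Col17a1, the hemidesmosome collagen, ranked 37.8, 39.3, 41.7 and 43.8 against 63.7, 66.4, 69.1 and 77.5, and Col7a1, which anchors epithelial basement membrane, 44.3, 42.5, 43.6 and 46.9 against 59.0, 68.0, 73.4 and 80.3. Col6a6 ranked 71.1, 71.2, 69.1 and 72.6 against 50.6, 52.5, 53.4 and 50.8. The Col11a1 mean rank over the 8 samples was 40.04, and its call ended, by falling under the filter, without any 1 of the 4 subcutaneous libraries. It also ended with gonadal reads passed through rlog and in the LCN2 samples. The common fibrillar collagens Col1a1, Col1a2 and Col3a1 all ranked above 98 in both depots. Of 25 progenitor and fibroblast genes, Thy1 was higher in subcutaneous fat, at 75.0 ± 3.75 against 88.7 ± 4.23, and 0 in gonadal fat. Of 11 steroid receptor and enzyme genes only Pgr was called, while Esr1, the estrogen receptor, overlapped at 94.6 ± 1.08 against 93.7 ± 2.17.

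Genes of the fat cell itself differed little in median rank. None of 22 adipocyte identity genes and none of 16 lipogenesis genes was called in either direction, with median differences of 0.00387 and -0.400 points. Their list medians lay at 99.8 to 99.9 and at 96.0 to 99.5 in the 8 samples, where ranks are compressed. On the common log2 scale, where abundant genes are not compressed, 0 members of either list were called and the medians were 0.09 and -0.19. Over all genes tested, 1.11% were called higher in gonadal and 2.35% in subcutaneous fat by rank, and 2.29% and 3.53% on the common scale. At these shares lists of 22 and 16 genes would hold few calls, so the absence of calls says little. Of 20 thermogenic genes, Prdm16, a regulator of beige fat, was called higher in subcutaneous fat at 60.6 ± 2.62 against 70.7 ± 4.45, and its call ended in 5 of the 8 fits that leave out 1 library. Ucp1, the uncoupling protein of brown and beige fat, ranked 31.8, 79.8, 77.8 and 26.2 in gonadal fat and 96.4, 62.1, 56.6 and 89.6 in subcutaneous fat. The depots overlapped, and samples of 1 depot lay further apart than the means. Cidea, a lipid droplet protein, overlapped too, with 52.9 ± 15.3 against 73.3 ± 10.2.

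Markers of other cell types were called in few genes, apart from those of lymph node. Of 22 lymph node genes, 8 were called higher in subcutaneous fat and 0 in gonadal fat, with a median difference of -17.3 points. Without subcutaneous replicates 1 and 2 the count was 0 and the median -2.81. Fcer2a, the low affinity IgE receptor of B cells, ranked 81.8, 70.8, 46.0 and 45.7 in subcutaneous fat against 24.5 to 38.8 in gonadal fat. Without these 2 libraries 335 genes in all were higher in subcutaneous fat, of which 277 were among the 408. Of the 408, 76 lost the call by falling under the rank filter and 55 otherwise. The mesothelial and subcutaneous factor counts were the same without the 2 libraries, the luminal count was 16 and the junction count 17. The luminal median difference without them was -45.7 points. Of 20 macrophage genes Cd9 was called higher in subcutaneous fat, a gene that epithelia also express, and none of 16 endothelial, 14 hepatocyte and 17 skeletal muscle genes was called. Over all genes tested the shares called were 1.11% and 2.35%, so few calls would fall in lists of this size. In the LCN2 samples 8 of the 14 hepatocyte and 2 of the 17 muscle genes were called higher in gonadal fat. Des, desmin, was the 1 of 12 smooth muscle and pericyte genes called, higher in gonadal fat with replicate 4 at 98.0 and the others at 82.1 to 87.6, and its call ended without that library. Of 15 ovary and reproductive tract genes Star, a cholesterol transporter of steroid cells, was higher in gonadal fat at 60.6 ± 4.53 against 49.2 ± 0.429. That call ended without gonadal replicate 4. The ovarian genes Nr5a1, Foxl2 and Zp3, all under the filter, ranked 11.5 ± 4.67, 19.2 ± 9.45 and 6.90 ± 2.72 in gonadal fat. Their subcutaneous ranks were 2.62 ± 0.163, 3.07 ± 0.651 and 11.1 ± 0.0127, without overlap. Of other members, Inha ranked 46.1 in gonadal against 45.9 in subcutaneous fat and Ovgp1 46.5 against 47.0, both with overlap. Hoxa11, under the filter, ranked 53.6 against 7.34 without overlap. Of the 15 genes, 10 had a positive and 5 a negative difference. Whether ovary or tract tissue was in the gonadal samples was not tested.

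**Figure D4:**
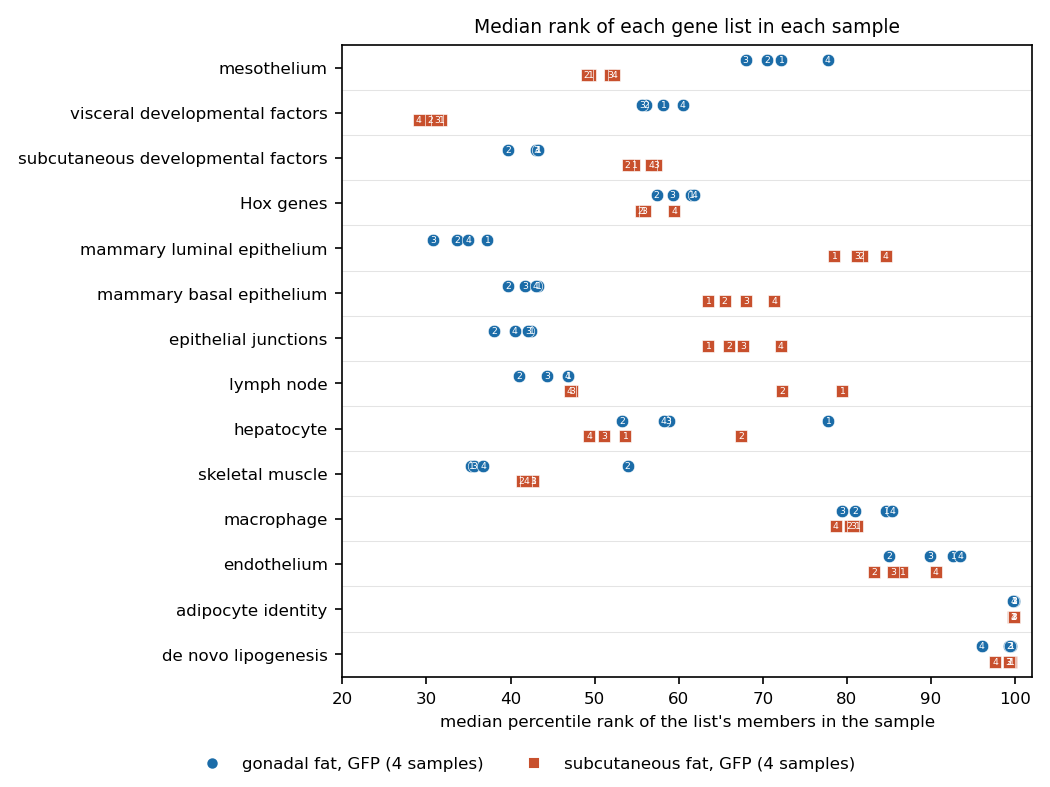
Median percentile rank (x axis) of the measured members of 14 gene lists in each gonadal (circles) and subcutaneous (squares) GFP sample, with the replicate number inside each point. The luminal, basal and junction lists separate the depots in all samples, the adipocyte list does not, and the lymph node list is high only in subcutaneous replicates 1 and 2.

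Lcn2 itself, whose gene carries a null allele in all these mice, was counted in both depots. It ranked 52.6, 49.7, 50.3 and 51.3 in gonadal fat, with a normalized count of 81.2 ± 18.7 (SD, n = 4), and 58.6, 62.9, 62.9 and 63.7 in subcutaneous fat. It was called higher in subcutaneous fat by 11.1 points, a call that ended with gonadal reads passed through rlog before ranking, with ranks over protein-coding genes and in the LCN2 samples. Which part of the locus these reads came from is not known from a gene total, so this value does not check the allele. Reference genes differed by few points. None of 20 housekeeping, 30 ribosomal protein and 13 mitochondrial genome genes was called, with medians of -0.0206, -0.862 and -0.00516 points, at high ranks that are compressed. At the shares called over all genes tested, 1.11% and 2.35%, few calls would fall in lists of this size. All 30 ribosomal protein genes had a negative difference, and in 21 of them every subcutaneous sample ranked above every gonadal one, beside 10.5% of all genes tested.

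The LCN2 samples, which share the 2 tables but none of the libraries, were ranked in the same way. Of the 192 genes higher in gonadal fat, 158 (82.3%) did not overlap in the same direction, beside 11.7% of all genes tested with gonadal fat higher, and so did 367 of the 408 higher in subcutaneous fat, beside 14.9%. None was called in the opposite direction. With LCN2 samples alone, 168 genes (0.968%) were called higher in gonadal and 366 (2.11%) in subcutaneous fat, and 77 and 275 of these were among the GFP calls. Wt1 ranked 65.9 and 4.06 in those depots, Upk3b 82.5 and 22.2, Msln 69.6 and 33.3, Foxa1 21.4 and 86.4, Cdh1 30.4 and 90.7 and Tbx15 37.6 and 70.7 (means, n = 4). Wt1 was not called there, because its mean rank over the LCN2 samples was under 40. All 11 mesothelial genes called in GFP samples had lower gonadal means in LCN2 than in GFP samples, with a median of -10.9 points. In 8 of the 11 every gonadal LCN2 sample ranked below every gonadal GFP sample. The 11 were chosen for high gonadal GFP ranks, so a lower LCN2 mean is partly built in. The called visceral factors (4 of 4) and Hox genes (4 of 4) had lower LCN2 means too. Over all 20 list members, gonadal sample medians were 68.0 to 77.7 with GFP and 59.9 to 68.1 with LCN2. The same share over all genes was not computed. The luminal list again had 21 of 24 and the subcutaneous factors 8 of 31 higher in subcutaneous fat, beside 2 of the 31 higher in gonadal fat, while the mesothelial list had 9 of 20, the visceral factors 2 of 16 and the Hox genes 0 of 31 higher in gonadal fat.

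**Figure D5:**
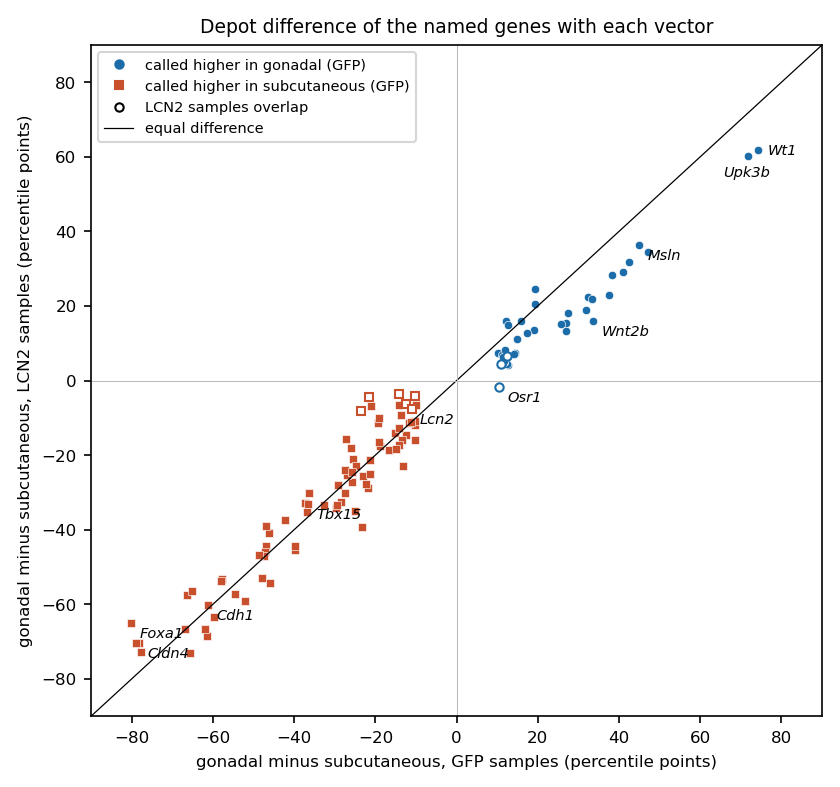
Difference in mean percentile rank between gonadal and subcutaneous fat for the 117 called genes that are list members, Lcn2 or among the largest differences, in GFP samples (x axis, points) and in LCN2 samples (y axis, points), with open symbols where the LCN2 samples overlap between depots. All but Osr1 keep the sign of their difference.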

How the data were processed

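RNA from frozen fat was sequenced after a stranded mRNA library preparation, per the labels' protocols. The submitters' processing notes name HISAT2, DESeq2 and the builds GRCm38 and mm10; their versions, the counting tool and its annotation are not stated there. The gonadal table deposited by the authors holds a signal, reads divided by a size factor per sample. Whole reads were recovered from it for all values within a tolerance of 1e-06. The subcutaneous table deposited by the authors holds rlog values on a log2 scale, a transformation that draws low genes toward their mean, and its depth is unknown. The tables list 30325 and 30946 genes, of which 29084 are shared, and 99.3% of these have a symbol.

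Ranks within each sample (average for ties), calls and list counts were computed with Python 3.11.15, pandas 2.3.3 and numpy 2.4.6, and an rlog of the gonadal reads with R 4.3.3 and DESeq2 1.42.0. The ranking was tested on simulated data. The common log2 scale uses a pseudocount of 1. Gene coordinates are GENCODE M21 (GRCm38), and promoters are RefSeq (GRCm38.p6). Genes are named by rule: the 3 markers, called members of the 7 identity lists, up to 4 called members of each other list, and per direction the 10 largest differences with a mean rank of at least 60 in the higher depot. Well-known list members that were not called may also be named. The members and all 29 lists were chosen with earlier results of these data known. Alternatives changed the minimum difference, the rank filter, the genes ranked, the transformation, the overlap rule and the samples. Intervals are not given, since the comparison crosses tables. Some list members are not reported here.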

Additional observations from a re-analysis of the deposited data

Results flagged for a closer look

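Over the 117 called genes that are list members, Lcn2 or among the largest differences, 234 groups of 4 samples were examined for a single sample that stood far from the other 3, and 13 did. Chance flags about 1 in 20 groups. None of these samples could close the gap between the depots, because a gene was called only when its depots did not overlap.

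Lrrn4 ranked 83.6 in gonadal replicate 4 and 76.6 to 77.0 in the others, and Bnc1 ranked 40.3 in subcutaneous replicate 4 and 36.6 to 37.2 in the others.

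Among luminal genes in gonadal fat, Foxa1 ranked 23.1 in replicate 1 and 3.98 to 5.79 in the others, a step that spans 0 to 3 reads. Cited1 ranked 5.15 in replicate 1 and 26.2 to 27.0 in the others, and Cldn3 ranked 14.9 in replicate 3 and 35.3 to 37.3 in the others. Prom1 ranked 53.4 in replicate 1 and 49.7 to 50.3 in the others. Prlr ranked 80.5 in replicate 4 and 85.8 to 86.8 in the others. Outside the luminal list, Muc15 ranked 10.96 in replicate 4, on 1 read, and 5.15 to 5.79 in the others.

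In subcutaneous replicate 1, Foxa1 ranked 87.2 and 90.5 to 90.9 in the others, Krt18 ranked 94.7 and 97.1 to 97.3 in the others, and Lcn2 ranked 58.6 and 62.9 to 63.7 in the others. In subcutaneous replicate 4, Pkp3 ranked 71.2 and 67.4 to 68.0 in the others, and Sfn ranked 69.0 and 66.9 to 67.3 in the others. The cause of these values was not tested.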

How the results depend on the processing

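The counts of 192 genes higher in gonadal and 408 higher in subcutaneous fat depend on the limits. They were 671 and 791 with a minimum difference of 5 points, 31 and 149 with 20 points, 759 and 1226 with no rank filter, 109 and 188 with a mean rank of at least 55, and 398 and 613 on the common log2 scale. Ranking 17652 protein-coding genes alone gave 182 and 252, and every main call lost there was not ranked or fell under the filter. Gonadal reads passed through rlog before ranking gave 212 and 439. Leaving out 1 library gave 180 to 226 and 368 to 502, and leaving out subcutaneous replicates 1 and 2 gave 244 and 335. Gonadal genes made up 32.0% of the calls, against 45.9% with 5 points, 17.2% with 20 points, 41.9% with protein-coding genes and 42.1% without those 2 libraries. The difference of Osr1 reversed to -1.78 in the LCN2 samples, and the cause was not tested. Of 117 called list members and genes of largest difference, 91 were called after each library was left out in turn. Another 13 lost the call only by falling under the filter, among them Wt1, whose mean rank over the 8 samples was 41.1, and 13 by a smaller difference or overlap. Among differences of named genes, 1410 recomputed values moved by less than the replicate SD, 110 by more. No paired analysis was possible because the result comes from no test, and nothing ties equal replicate numbers in the 2 depots to 1 animal. Low subcutaneous genes are limited by rlog and by an unknown depth.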

Other observations

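Some members of the lists are in only 1 of the tables used here and so have no rank difference. In gonadal fat, Gata5, a zinc finger factor of visceral mesoderm, had a normalized count of 93.7 ± 9.07, and Hoxd11 of 59.5 ± 26.5 (SD, n = 4). Hoxa13, the most posterior gene of its cluster, ranged from 26.5 to 192 among the 4 samples. In subcutaneous fat the milk protein gene Csn3 had an rlog value of 9.29 ± 0.46, the growth factor gene Areg of 8.09 ± 1.36, and the claudin gene Cldn8 of 8.24 ± 0.43 (SD, n = 4). The milk protein genes Csn1s1, Csn2, Csn1s2a and Wap were low there, with mean rlog values of 1.44, -0.09, -1.36 and -1.72. Lalba, which has a rank in both depots, was under the filter, at 20.7 in subcutaneous fat. Lhx8, a LIM homeobox factor, stood at 7.25 ± 0.25, Cldn6 at 5.76 ± 0.27 and the epithelial factor Ovol2 at 4.61 ± 0.10. Values of the 2 tables are on different scales and cannot be set against each other.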
